A study of Mus musculus with 43 samples.

Results

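Arterial-type endothelial cells sorted as Gja5+Cd44+ from the mouse yolk sac (YS) were compared with cells sorted by the same 2 markers from a source labelled CR, which the sample labels leave abbreviated and the name of the deposited table gives as caudal. The comparison used 94 of the 608 cells of the series, 50 from YS and 44 from CR, taken by their sorted group as labelled. Each group was 1 sample and 1 library, so there was no replicate spread and no test, and the library and the source cannot be told apart. The labels give no embryonic stage, strain or number of pooled embryos for the sorted cells. The same series also holds 36 sorted Gja5-Cd44+ YS cells and 40 yolk sac libraries labelled by embryonic day. The 9 labelled E10.0 are given here beside the sorted cells as levels only. The cells were profiled with an adapted form of STRT, single-cell reverse transcription with tags, which primes from the poly(A) tail and marks each cell with a barcode.

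In the embryo, some endothelial cells of arteries turn into blood cells. Notch signalling sets up the arterial state, which Gja5 (connexin 40) and its partner Gja4 (connexin 37) mark, and Runx1, acting with Gfi1, drives the loss of endothelial features as blood-forming (hemogenic) endothelium becomes blood. The yolk sac makes the first red cells, which carry embryonic globins, and a later wave of progenitors, while Hox genes record the position of a cell along the body axis.

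Group levels are counts summed over cells and scaled to a common total (CPM), and intervals are exact 95% Poisson intervals that cover counting error only. The 50 YS cells held 11492877 counts (19335 to 761088 a cell, median 178190.5) and the 44 CR cells 9185580 (15337 to 691838, median 163927.5), with a median of 4971 and 5941 genes detected. Spike-in RNA made up a median of 2.75% of the counts of a YS cell and 2.88% of a CR cell. The cell numbers in the column names overlapped for 6 YS and CR cells, and 0 columns were identical. Counts of Xist and of a Y-linked gene, which should not meet in 1 cell, occurred together in 25 of 50 YS and 25 of 44 CR cells. At 10 counts or more of both, this was 0 YS and 3 CR cells, so shares of cells with a single count are read with that background in view. One YS cell held 95.5% of all Col1a1 counts of the group. It was low in the sorting markers but within the range of the other YS cells, with 76.5 CPM of Gja5, 8.82 CPM of Cd44 and 64.7 CPM of the endothelial cadherin Cdh5, and values that rest on it are given with and without it.

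The sorting markers bore out the labels. Gja5 (chr3:96904693-97077416, GRCm38, as all gene positions here) was at 1264 CPM (1244 to 1285) in YS and 765 CPM (747 to 783) in CR, and ran from 54.8 through a median of 1241 to 3706 CPM over YS cells and from 58.7 through 675 to 2943 CPM over CR cells. All 94 cells had a Gja5 count and the 2 ranges overlapped over most of their length. In the Gja5-Cd44+ YS cells it was at 0.12 CPM, with a count in 1 of 36 cells. Cd44 (chr2:102811141-102901665), an adhesion receptor, was at 311 CPM in YS, 274 CPM in CR and 73.2 CPM in the Gja5-Cd44+ cells, and ran from 5.74 through 251 to 1579 CPM over YS cells and from 0 through 250 to 1018 CPM over CR cells. Of 24 pan-endothelial genes, 18 lay within 2-fold between YS and CR, a share near the 70.1% of all genes tested, among them Cdh5 at 1208 and 724 CPM and Pecam1, an adhesion molecule of all endothelium, at 668 and 432 CPM. The pan-blood marker Ptprc (CD45) had 0 counts in YS, which allows up to 0.261 CPM (3 counts over the group), and 16 counts in a single CR cell.

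Most of the transcriptome was shared. Among 9391 genes with at least 10 CPM in the higher group, 1347 (14.3%) were at least 2-fold higher in YS and 1461 (15.6%) at least 2-fold higher in CR, so that 29.9% passed that fold in either direction. The median log2 ratio of YS over CR was -0.06. The genes that set the sources apart by most were those of sinusoidal and lymphatic-type endothelium and of red cells on the YS side, and blood-forming regulators and posterior Hox genes on the CR side. Giving each cell equal weight left 811 of the 1347 and 937 of the 1461 genes past the fold, so part of the calls depended on how cells were weighted.

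**Figure D1:**
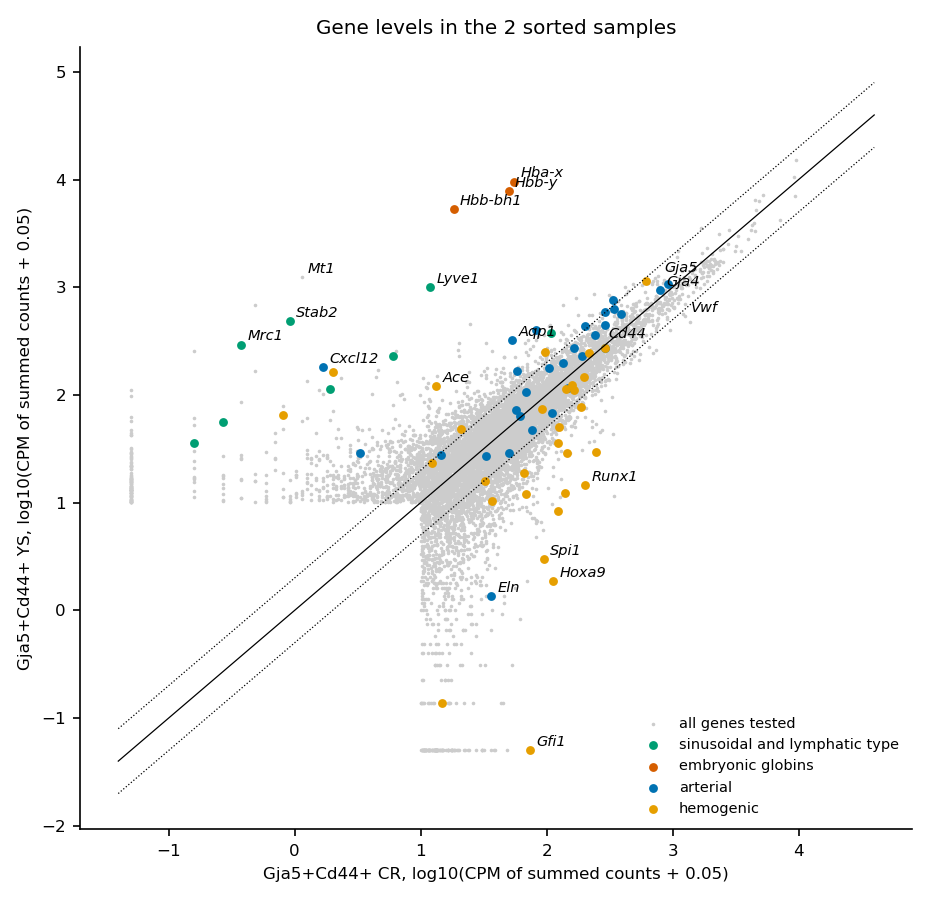
Level of every tested gene in Gja5+Cd44+ CR cells (horizontal) and Gja5+Cd44+ YS cells (vertical), as log10(CPM of summed counts + 0.05), with 4 gene lists coloured. Dotted lines mark a 2-fold difference. Of the arterial genes 20 of 29 lie between the dotted lines, a share near the 70.1% of all genes. The sinusoidal genes and globins lie above and 16 of 30 hemogenic genes below them (against 14.3% and 15.6% of all genes).

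**Figure D2:**
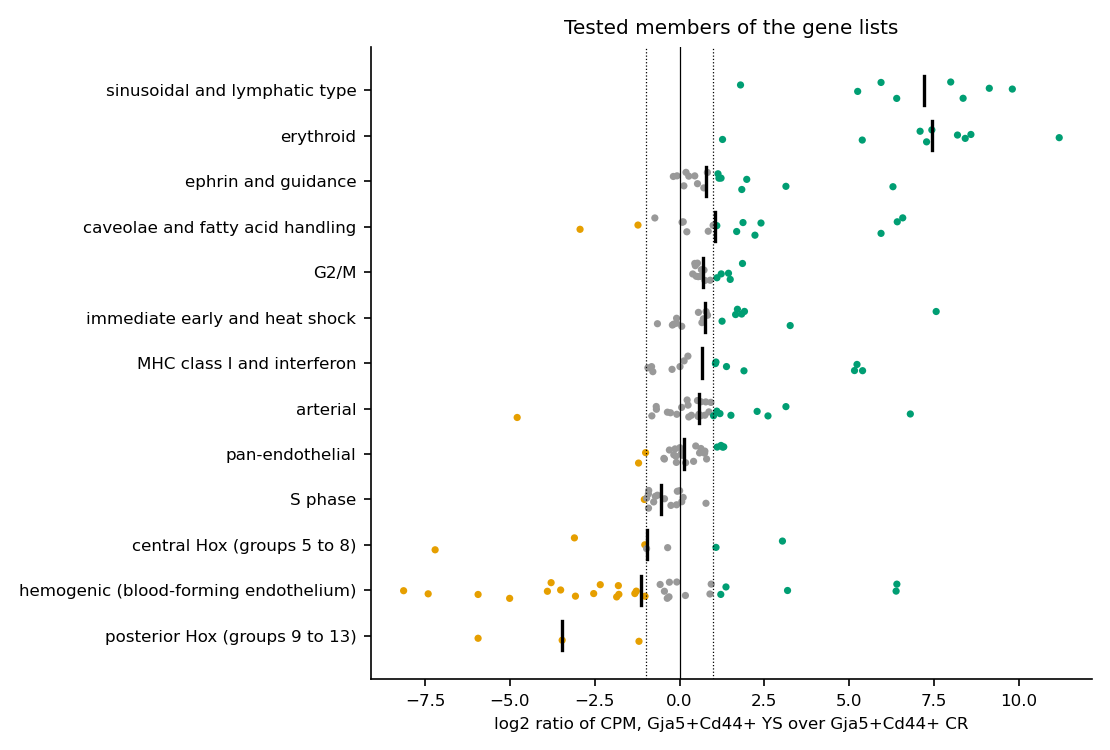
Log2 ratio of CPM, YS over CR, for each tested member of 13 gene lists, with a black bar at the median of the list and dotted lines at 2-fold in both directions. The medians run from 7.44 for the erythroid list to -3.46 for the posterior Hox list.

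Both sources held arterial transcripts that the Gja5-Cd44+ YS cells lacked or had little of. Of 29 arterial genes tested, 20 lay within 2-fold, a share near the 70.1% of all genes. Past that fold, 8 were higher in YS (against 14.3%) and 1 was higher in CR (against 15.6%). The median log2 ratio was 0.57. By the mean over cells, 5 of 29 were higher in YS and 3 in CR (against 1219 and 1448 of 9333 for all genes). Gja4 was at 940 CPM (923 to 958) in YS and 790 CPM (772 to 809) in CR, against 1.08 CPM in the Gja5-Cd44+ YS cells. Over cells it ran from 24.9 through 617 to 4006 CPM in YS and from 29.3 through 728 to 2902 CPM in CR, so the distributions lay on top of each other. The Notch ligand Dll4 was at 197 and 135 CPM, and the ligand Efnb2, which marks arterial against venous endothelium, at 563 and 391 CPM. The Notch targets Hey1, at 115 CPM in YS and 147 CPM in CR, and Hey2, at 72.1 and 56.6 CPM, had 0 counts in the Gja5-Cd44+ cells. Gja4 and Hey1 occurred together in 43 of 50 YS and 39 of 44 CR cells and in 0 of the 36 Gja5-Cd44+ cells. Mecom, a zinc-finger regulator of arterial endothelium and blood stem cells, was at 275 and 291 CPM, and the receptor Notch1 at 446 and 289 CPM. The venous regulator Nr2f2 was low in both sources, at 8.61 and 10.02 CPM, and was at 53.9 CPM in the Gja5-Cd44+ cells.

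Some arterial genes were far higher in 1 source. Cxcl12 (chr6:117168535-117181367), the chemokine that draws Cxcr4-bearing cells, ran from 0 through a median of 4.58 to 1510 CPM over YS cells and from 0 to 77.5 CPM over CR cells, with a median of 0. A minority of YS cells was high, and 12 of 50 lay above the highest CR cell. Summed, it was at 182 CPM in YS and 1.63 CPM in CR, a ratio of 112 (67.6 to 200), and the Gja5-Cd44+ YS cells had 11.6 CPM. The water channel Aqp1 was at 324 CPM in YS and 53.1 CPM in CR, and ran from 2.97 through 115 to 1177 CPM over YS cells and from 0 through 9.64 to 537 CPM over CR cells. The semaphorin Sema3g, at 28.7 and 3.27 CPM, the receptor Notch4, at 166 and 58.1 CPM, and the hypoxia-inducible factor Epas1, at 763 and 334 CPM, were also higher in YS, although the mean over cells of Epas1 differed by less than 2-fold (log2 ratio 0.70). Ace, which makes angiotensin II, was at 121 CPM in YS, 13.3 CPM in CR and 0 counts in the Gja5-Cd44+ YS cells.

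On the CR side, Eln, which codes for the elastin of large arteries, was at 36.0 CPM against 1.31 CPM in YS, a ratio of 27.6 (16.5 to 49.9). It was detected in 28 of 44 CR and 13 of 50 YS cells. Vwf, the clotting factor carrier that endothelium stores, ran from 279 through 1173 to 4940 CPM over CR cells and from 18.8 through 296 to 2727 CPM over YS cells. Every cell of both sources had a Vwf count, and the group level was 1252 CPM in CR and 542 CPM in YS, 2.31-fold higher (2.24 to 2.38). Of 28 basement membrane and matrix genes tested, 8 were higher in YS (against 14.3% of all genes) and 4 in CR, a share near the 15.6% of all genes. Without the YS cell rich in Col1a1 they were 5 and 4 of 25 (against 1339 and 1506 of 9376 for all genes). The list summed to 13923 CPM in YS and 9794 CPM in CR. On the CR side were Hapln1, which links hyaluronan to proteoglycans, at 239 against 37.1 CPM and Mmrn1 at 69.1 against 9.14 CPM. At 10 counts or more, Mmrn1 was in 11 of 36 Gja5-Cd44+ YS and 13 of 44 CR cells, and Hapln1 in 10 and 28.

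The YS cells carried, beside the arterial genes, the scavenger receptors of sinusoidal and lymphatic-type endothelium. All 8 tested members of that list were higher in YS (against 14.3% of all genes, median log2 ratio 7.20), whereas 5 of its 13 members had 0 counts in YS. Stab2, Mrc1, Maf and Cd36 reached the minimum of 10 CPM in YS only, which fixed their direction, so the count of 8 is a description. Stab2 (chr10:86841198-87008025), a receptor for hyaluronan, ran from 0 through 135 to 2475 CPM over YS cells and from 0 to 15.2 CPM over CR cells. Of the YS cells, 44 of 50 lay above every CR cell. Its level was 488 CPM (476 to 501) in YS and 0.871 CPM (8 counts) in CR. Lyve1 (chr7:110850607-110863239), another hyaluronan receptor, ran from 0 through 317 to 3412 CPM over YS cells and from 0 to 228 CPM over CR cells, with 1003 CPM in YS and 11.9 CPM in CR, a ratio of 84.6 (70.0 to 103). The mannose receptor Mrc1 (chr2:14229392-14332057) was at 293 CPM in YS and had 3 counts in CR, a ratio of 898 (307 to 4356). Stab2, Lyve1 and Mrc1 occurred together in 45 of 50 YS cells, in all 36 Gja5-Cd44+ YS cells and in 0 of 44 CR cells, which allows up to 6.82% of cells with such counts (3 of 44) and does not limit the cells that express the genes. After thinning each cell to 100000 counts, the numbers were 31 of 37, 22 of 24 and 0 of 33. The levels were close between the 2 yolk sac groups, with 488 and 570 CPM of Stab2, 1003 and 1139 CPM of Lyve1 and 293 and 289 CPM of Mrc1. Maf, a transcription factor, was at 228 CPM in YS and 5.99 CPM in CR, and Stab1 was at 375 and 108 CPM. Of 8 venous and plexus genes tested, 1 (Vwf) was higher in CR, 4 lay within 2-fold and 3 were higher in YS (against 14.3% of all genes): the apelin receptor Aplnr (103 against 1.63 CPM), the endocytic adaptor Dab2 (177 against 44.9 CPM) and the semaphorin co-receptor Nrp2 (50.9 against 18.1 CPM). Nrp2 lay within 2-fold without the YS cell rich in Col1a1 (log2 ratio 0.96). Lyve1 and Mrc1 also mark macrophages, of which 14 listed genes summed to 309 CPM in YS (0 to 1201 CPM over cells) and 59.2 CPM in CR (0 to 852 CPM), with Mrc1 alone giving 293 CPM in YS. The defining macrophage genes Csf1r, Cx3cr1, Adgre1 and C1qa had 0 counts in both sources.

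The 250 bases before the start site of Stab2 are shown as the promoter of the sinusoidal receptor with the widest gap between cells, and those of Gfi1 and Hoxa9 as promoters of genes on the CR side described further on (RefSeq, GRCm38.p6, read 5′ to 3′ on the strand of the gene, the minus strand for all 3). Capitals mark matches, on either strand, to TGTGGT, the motif of Runx1, to GATAA, that of Gata factors, to CCACCC, that of Klf factors, or to CCAAT or TATAAA. These motifs occurred in 14.05%, 22.6%, 28.1%, 33.8% and 12.4% of 32851 promoter windows of that length. The windows are chr10:87007943-87008192, chr5:107725806-107726055 and chr6:52227371-52227620.
Stab2: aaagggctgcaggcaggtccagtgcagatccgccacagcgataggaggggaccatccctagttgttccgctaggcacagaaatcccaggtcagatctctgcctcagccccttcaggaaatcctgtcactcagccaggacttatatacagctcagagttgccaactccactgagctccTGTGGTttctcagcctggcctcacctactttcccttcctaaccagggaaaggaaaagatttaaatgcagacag
Gfi1: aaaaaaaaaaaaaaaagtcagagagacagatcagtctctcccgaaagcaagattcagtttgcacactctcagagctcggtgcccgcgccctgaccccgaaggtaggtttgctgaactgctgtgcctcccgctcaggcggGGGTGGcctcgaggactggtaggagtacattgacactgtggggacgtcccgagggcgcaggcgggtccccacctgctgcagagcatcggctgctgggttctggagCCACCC
Hoxa9: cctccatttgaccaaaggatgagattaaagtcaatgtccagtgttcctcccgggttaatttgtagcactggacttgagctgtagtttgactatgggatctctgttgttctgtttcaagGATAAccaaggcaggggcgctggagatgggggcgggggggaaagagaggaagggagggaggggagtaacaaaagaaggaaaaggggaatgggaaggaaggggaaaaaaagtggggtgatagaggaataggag
The Stab2 window held TGTGGT starting 73 bases before the start, the Gfi1 window CCACCC at 111 (reverse strand) and 6 bases, and the Hoxa9 window GATAA at 132 bases. TGTGGT was in neither the Gfi1 nor the Hoxa9 window. Gfi1 has a second start in the RefSeq table, whose window is not shown.

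**Figure D3:**
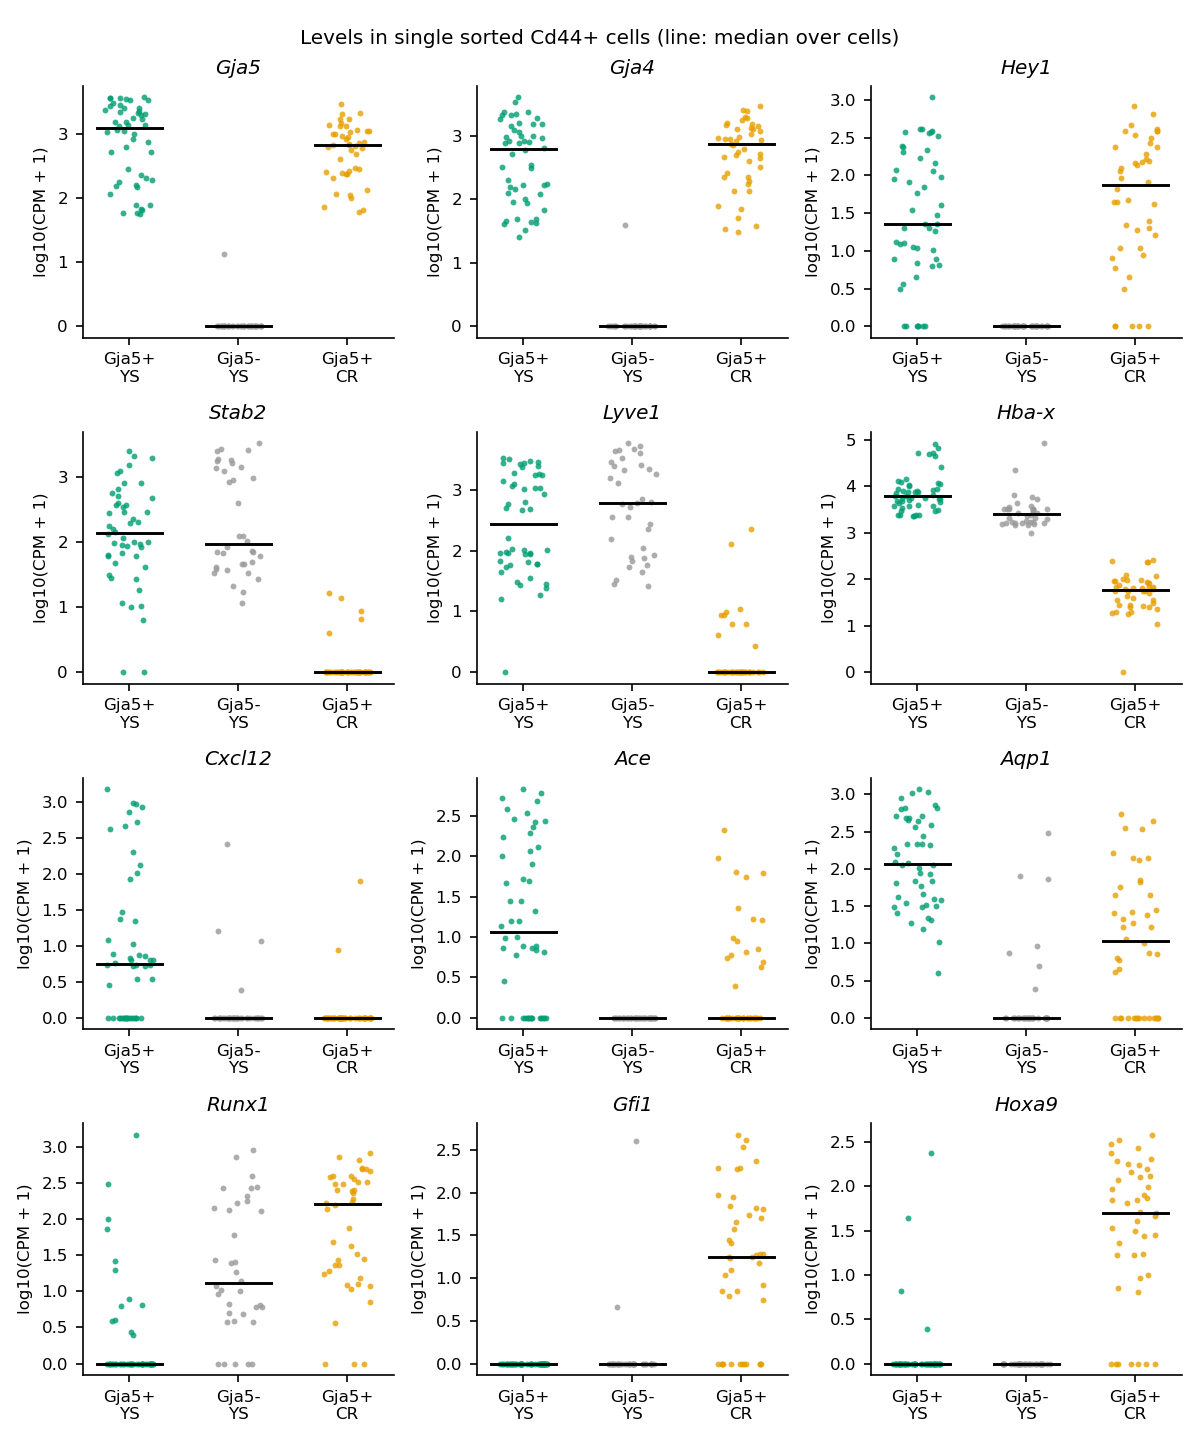
Level of 12 genes in single cells of the 3 sorted samples, as log10(CPM + 1), with a point for each cell and a black line at the median over cells (50 Gja5+ YS, 36 Gja5- YS and 44 Gja5+ CR cells, all Cd44+). Gja5, Gja4 and Hey1 separate the Gja5+ from the Gja5- cells, Stab2, Lyve1 and Hba-x separate YS from CR, and Runx1, Gfi1 and Hoxa9 are high in CR.

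Metallothioneins and caveolar genes also belonged to the YS side. Mt1 (chr8:94179082-94180327), which binds zinc and copper, ran from 62.1 through 199 to 12269 CPM over YS cells and from 0 to 8.80 CPM over CR cells, and the 2 sets of cells did not overlap. It was at 1237 CPM in YS, 1.09 CPM in CR and 839 CPM in the Gja5-Cd44+ YS cells, and its neighbour Mt2 at 678, 0.435 and 380 CPM. Whether these transcripts were made in the YS cells was not tested. Of 16 caveolae and fatty acid genes tested, 8 were higher in YS (against 14.3% of all genes) and 2 in CR (against 15.6%). The caveolar coat genes Cav1 (268 against 73.3 CPM), Cav2 (167 against 31.7 CPM) and Sdpr (797 against 171 CPM) and the fatty acid transporter Cd36 (114 against 1.85 CPM) were among the 8. The VEGF receptors Kdr, at 820 and 332 CPM, and Flt1, at 397 and 164 CPM, and the angiopoietin receptor Tek, at 571 and 265 CPM, were higher in YS by 2.47-fold, 2.41-fold and 2.16-fold. The mean over cells of Tek differed by less than 2-fold (log2 ratio 0.99). Tspan7, a tetraspanin (110 against 1.52 CPM), Fcgrt, the neonatal Fc receptor (145 against 2.29 CPM), and Itga3, an integrin chain that binds laminin (78.2 against 0.762 CPM), were among the 15 genes with the highest ratios.

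Red-cell transcripts were present in every YS cell. All 9 erythroid genes tested were higher in YS (against 14.3% of all genes). In CR the 3 embryonic globins gave 124 of the 136 CPM of the list. Most other tested genes thus reached the minimum of 10 CPM in YS only, which fixed their direction. The 14 erythroid genes found in the files, of 16 listed, summed to 4429 to 190999 CPM over YS cells and 0 to 573 CPM over CR cells, with 4 of them at 0 counts in YS and 7 in CR. Among cells with at least 200 CPM of Gja5 (37 of each source), 7 of 8 tested were higher in YS (against 1482 of 9364 for all genes). Hba-x (chr11:32276400-32278116), the embryonic alpha-type globin, ran from 2245 through 6089 to 80877 CPM over YS cells and from 0 through 57.5 to 257 CPM over CR cells, and the ranges did not overlap. Its level was 9589 CPM in YS, 55.3 CPM in CR and 4894 CPM in the Gja5-Cd44+ YS cells. The embryonic beta-type globins Hbb-y (chr7:103851749-103853216) and Hbb-bh1 (chr7:103841637-103843164) were at 7780 and 5355 CPM in YS and at 49.97 and 18.3 CPM in CR. Together the 3 globins made up 2.27% of YS counts (0.44% to 18.8% over cells, median 1.17%), 0.0124% of CR counts and 1.13% of those of the Gja5-Cd44+ YS cells. For each Hba-x count there were 0.811 Hbb-y counts in YS, 0.904 in CR and 0.832 in the Gja5-Cd44+ cells, and 0.558, 0.331 and 0.485 Hbb-bh1 counts. Alas2, which starts heme synthesis in red cells, was at 255 CPM in YS, with a count in 49 of 50 cells, and had 1 count in CR. Gata1, the erythroid transcription factor, had a count in 8 of 50 YS cells and 1 cell held 66.9% of its counts, while in the Gja5-Cd44+ cells it had a count in 26 of 36. In E10.0 libraries, cells with both a Gja5 and a Cd44 count had a median of 34.7 CPM of Hba-x (0 to 252). Whether the red-cell transcripts of the sorted YS cells were made in those cells was not tested.

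The promoters of 2 globins are shown because all 50 YS cells lay above every CR cell for both. They come from RefSeq, GRCm38.p6, at chr11:32276350-32276599 (plus strand) and chr7:103853208-103853457 (minus strand), with capitals as above.
Hba-x: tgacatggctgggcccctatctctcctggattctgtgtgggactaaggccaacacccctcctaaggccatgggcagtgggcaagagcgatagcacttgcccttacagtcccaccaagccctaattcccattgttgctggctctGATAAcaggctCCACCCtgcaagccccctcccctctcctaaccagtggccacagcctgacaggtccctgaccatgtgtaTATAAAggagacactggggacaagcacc
Hbb-y: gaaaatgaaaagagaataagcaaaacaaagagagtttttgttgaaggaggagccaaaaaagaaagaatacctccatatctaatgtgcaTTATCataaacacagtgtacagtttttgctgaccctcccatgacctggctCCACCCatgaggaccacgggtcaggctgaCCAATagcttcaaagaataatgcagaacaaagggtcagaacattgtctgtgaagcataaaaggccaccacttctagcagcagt
The Hba-x window held GATAA starting 107 bases before the start, then the CCACCC motif at 96 bases and the TATAAA motif at 28 bases. The Hbb-y window held GATAA on the reverse strand at 162 bases, then the CCACCC motif at 112 bases and the CCAAT motif at 83 bases. CCACCC was the motif found in both on the strand of the gene.

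Many blood-forming regulators were higher in the CR cells. Of 30 hemogenic genes tested, 16 were higher in CR (against 15.6% of all genes) and 5 higher in YS (against 14.3%), with a median log2 ratio of -1.15. Gfi1, Spi1, Hoxa9, Ikzf2 and Cd27 reached the minimum of 10 CPM in CR only, and Dlk1 and Smim1 in YS only. That fixed their direction, so the counts are a description. The 31 listed genes summed to 3223 CPM in YS and 3817 CPM in CR. Runx1 (chr16:92601466-92826149) ran from 0 through 160 to 826 CPM over CR cells, and from 0 to 1468 CPM over YS cells with a median of 0. It had a count in 41 of 44 CR cells and 13 of 50 YS cells, and a single YS cell held 51.8% of the YS counts. In the 3 YS and 9 CR cells with an Xist count and no Y-linked count the direction of Runx1 was the other one (log2 ratio 0.84), and without the cell with most Runx1 counts in each source it was -4.64. Its level was 202 CPM (193 to 211) in CR and 14.6 CPM (12.5 to 17.0) in YS, a ratio of 13.8 (11.8 to 16.3), and the Gja5-Cd44+ YS cells had 134 CPM. Gfi1 (chr5:107716657-107726036), a repressor that Runx1 acts through, ran from 0 through 16.6 to 474 CPM over CR cells and had 0 counts in all 50 YS cells. It was at 73.4 CPM in CR, at least 281-fold higher than in YS (with YS set to 3 counts over the group), and at 2.28 CPM in the Gja5-Cd44+ YS cells. Runx1 and Gfi1 occurred together in 31 of 44 CR cells, 2 of 36 Gja5-Cd44+ YS cells and 0 of 50 Gja5+Cd44+ YS cells, which allows up to 6% of cells with such counts (3 of 50). Spi1 (PU.1), a regulator of myeloid and lymphoid fate, had a count in 31 CR cells and 1 YS cell, with levels of 95.3 and 2.96 CPM. At 10 counts or more, Spi1 was in 12 of 44 CR, 1 of 50 Gja5+Cd44+ YS and 9 of 36 Gja5-Cd44+ YS cells. Thinned to 100000 counts, Runx1 was detected in 90.9% of 33 CR cells and 18.9% of 37 YS cells, and Spi1 in 69.7% and 2.70%. Epithelial, gut and neural markers were also higher in CR: the 14 listed summed to 150 CPM there (0 to 527 CPM over cells, median 41.6) and 18.7 CPM in YS (0 to 418 CPM, median 0), mostly from the keratin Krt18 (110 against 9.75 CPM). Of the 14, 9 had 0 counts in CR and 12 in YS, the epithelial cadherin Cdh1 among them in both, and their part in the hemogenic result was not tested.

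Further members described the same side. Adgrg1 (GPR56), a surface receptor of emerging blood stem cells, was at 247 CPM in CR and 29.4 CPM in YS, and Neurl3, a ubiquitin ligase gene that marks hemogenic endothelium in mouse, at 140 and 12.4 CPM. The zinc-finger factor Ikzf2 was at 123 and 8.27 CPM, the stem cell factor receptor Kit at 145 and 28.6 CPM, the progenitor factor Myb at 37.1 and 10.3 CPM, Mycn at 68.9 and 11.9 CPM and Hlf, a stem cell transcription factor, at 65.5 and 18.97 CPM. At 10 counts or more, Myb was in 8 of 36 Gja5-Cd44+ YS and 9 of 44 CR cells, and Kit in 13 and 23. Adgrg1 was in 14 and 26 of them, Neurl3 in 8 and 24, Ikzf2 in 6 and 21, Mycn in 8 and 16 and Hlf in 2 and 12. Cd27 was at 14.8 CPM in CR with 1 count in YS, and a single CR cell held 51.5% of its counts. The genes of the earlier steps lay within 2-fold, with Gata2 at 124 CPM in YS and 159 CPM in CR, Tal1 at 74.1 and 91.2 CPM and Cbfb, the partner of Runx1, at 112 and 166 CPM. Higher in YS were Dlk1, a ligand related to those of Notch, at 64.6 against 0.762 CPM, Fgd5, an exchange factor of endothelium and stem cells (250 against 96.8 CPM), the early blood integrin Itga2b (48.6 against 20.9 CPM), the blood group gene Smim1 (164 against 1.96 CPM), and Ace. The mean over cells of Itga2b differed by less than 2-fold (log2 ratio 0.54).

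The lymphoid list was low in both sources. Of 18 found in the files, 10 had 0 counts in YS and 8 in CR, among them Rag1, which cuts the antigen receptor genes, and Il7r, the interleukin 7 receptor, at 0 counts in both. Of 7 tested, 2 were higher in each source (against 14.3% and 15.6% of all genes). By the mean over cells, 1 of 6 was higher in YS and 4 in CR (against 1219 and 1448 of 9333 for all genes). In cells with at least 200 CPM of Gja5, 2 of 7 were higher in YS and 4 in CR (against 1482 and 1647 of 9364). Bcl11a, a regulator of lymphoid progenitors, was at 131 CPM in CR and 16.4 CPM in YS, Notch3 was at 17.96 and 1.22 CPM, and the cytokine receptor chain Il2rg (32.7 against 71.4 CPM) and the B-cell receptor subunit Cd79b (5.55 against 31.4 CPM) were higher in YS. The mean over cells of Il2rg and Laptm5 differed by less than 2-fold (log2 ratios 0.80 and -0.93). The leukocyte genes Coro1a, at 119 CPM in CR and 29.3 CPM in YS, and Laptm5, at 114 and 36.1 CPM, were higher in CR. They were 2 of 4 on that side among 9 hematopoietic genes tested (against 15.6% of all genes). The 22 listed hematopoietic genes summed to 368 CPM in YS, 631 CPM in CR and 1341 CPM in the Gja5-Cd44+ YS cells. At 10 counts or more, Coro1a was in 14 of 36 Gja5-Cd44+ YS and 12 of 44 CR cells, and Laptm5 in 16 and 22. The macrophage receptor Csf1r had 0 counts in both sources.

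Hox genes showed which positional genes the sources carried. Of 39 listed, 24 had 0 counts in YS and 14 in CR, and of the 13 tested 7 were higher in CR (against 15.6% of all genes) and 3 in YS (against 14.3%). Hoxa7, Hoxa9, Hoxa10, Hoxb6 and Hoxb9 reached the minimum of 10 CPM in CR only, and Hoxc8 in YS only. That fixed their direction, so the counts are a description. Hoxa9 (chr6:52223100-52231089) ran from 0 through 49.6 to 382 CPM over CR cells and was at 0 in 46 of 50 YS cells. It was at 112 CPM in CR and 1.83 CPM in YS, a ratio of 61.4 (39.9 to 99.6), with 0 counts in the Gja5-Cd44+ YS cells. Its neighbours on chromosome 6 were on the same side, with Hoxa7 at 38.5 CPM and 0 counts (at least 148-fold) and Hoxa10 at 19.2 and 1.74 CPM. The Hoxb cluster was split, with Hoxb2 (28.5 against 12.1 CPM) and Hoxb5 (24.5 against 11.6 CPM) higher in YS, and Hoxb6 (1.74 against 14.9 CPM) and Hoxb9 (6.18 against 14.2 CPM) higher in CR. Hoxb3, at 26.3 and 24.8 CPM, and Hoxb7, at 13.7 and 17.4 CPM, lay within 2-fold. Hoxc8 was at 36.5 CPM in YS, detected in 14 cells, and 4.46 CPM in CR, and its log2 ratio went from 3.03 to 2.37 without the YS cell rich in Col1a1. No gene of groups 11 to 13 was tested, and those listed had 0 counts in both sources. A single YS cell held 80% or more of the YS counts of Hoxa10, Hoxb4, Hoxb6 and Hoxb9. By the mean over cells, Hoxb5 was lower in YS (log2 ratio -0.32), and Hoxb2 (0.76), Hoxb9 (-0.70) and Hoxa10 (-0.97) lay within 2-fold.

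**Figure D4:**
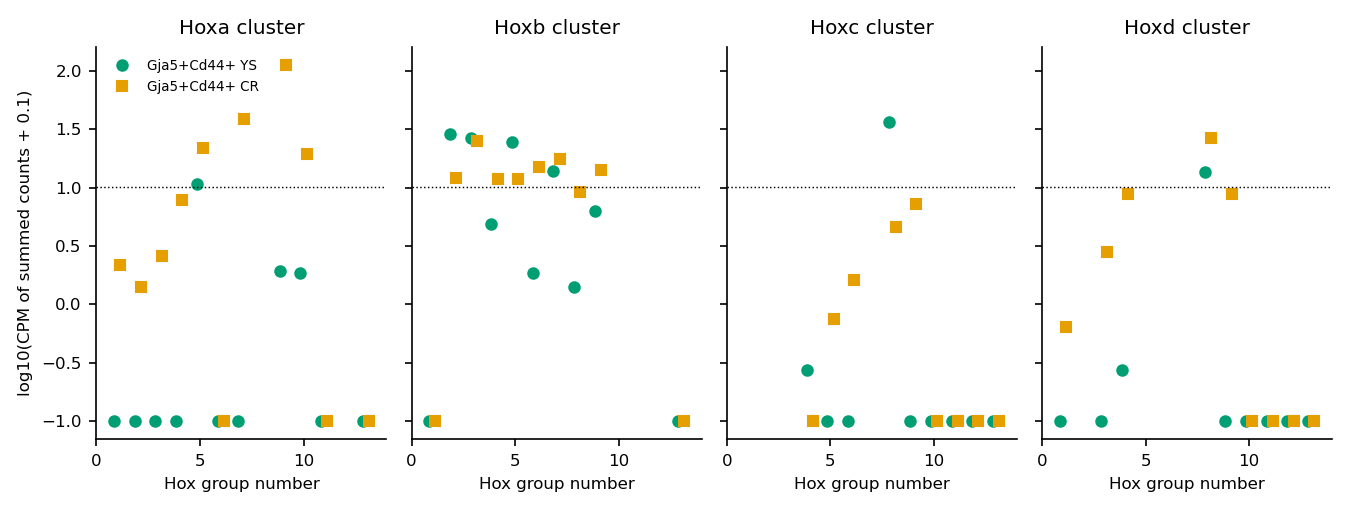
Level of each listed Hox gene by cluster and group number, as log10(CPM of summed counts + 0.1), for YS (circles) and CR (squares), with 0 counts at the bottom and a dotted line at the 10 CPM minimum. In the Hoxa cluster the CR squares reach 112 CPM at Hoxa9, and every YS circle except that of Hoxa5 lies below the dotted line.

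Of 14 other positional factors tested, 6 were higher in CR (against 15.6% of all genes) and 3 in YS, a share near the 14.3% of all genes. The Hox cofactor Meis1, at 125 CPM in CR and 50.2 CPM in YS, was higher in CR, as were Foxc2, a forkhead factor of the aorta and lymphatic vessels (82.0 against 6.79 CPM), and Isl1, a factor of the second heart field (52.8 against 14.2 CPM). In YS the forkhead factor Foxf1, which the extraembryonic mesoderm of mouse needs, was at 99.4 against 6.75 CPM, Tbx3 at 61.5 against 1.20 CPM and Tbx20, a T-box factor of the heart, at 16.0 CPM against 0 counts. One YS cell, the one rich in Col1a1, held 47.3% of the Tbx20 counts, and without it 2 of 13 tested genes were higher in YS. Foxf1, Tbx3 and Tbx20 reached the minimum of 10 CPM in YS only and Foxc2 in CR only, which fixed their direction. Foxc2 and Isl1 had 0 counts in the Gja5-Cd44+ YS cells, and Tbx3 was at 0.599 CPM there.

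Relations among cells of 1 source were described with a different gene in each, Gja5 in YS and Runx1 in CR. In the 37 YS cells with at least 100000 counts, thinned to that depth, the Gja5 count went with the arterial genes (Spearman's rho above 0 for 20 of 21, median 0.50) and the pan-endothelial genes (21 of 24, median 0.41). The coefficient was above 0 for 6 of 8 caveolar and fatty acid genes (median 0.31), 3 of 7 sinusoidal genes (median -0.12) and 0 of 6 erythroid genes (median -0.25). All 15 G2/M genes had a rho below 0 (median -0.27), while the median over 4033 genes was -0.02. In the 33 CR cells of that depth, the Runx1 count went down as Gja5 went up (rho -0.63), and rho with Runx1 was below 0 for 22 of 26 arterial genes (median -0.33) and 23 of 24 pan-endothelial genes (median -0.36). It was above 0 for 17 of 23 hemogenic genes (median 0.29), with 0.64 for Gfi1, 0.62 for Adgrg1 and 0.51 for Spi1, and the median over 5245 genes was 0.02. Hoxa9, with a rho of -0.01, did not follow Runx1. Over the 37 YS cells, Runx1 had a rho of -0.44 with Gja5 and 0.43 with Adgrg1, the signs seen in CR. Both genes of the pair were detected in 7 and 5 of those YS cells. These coefficients describe cells of 1 library each, which share depth after thinning, and carry no p-value.

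**Figure D5:**
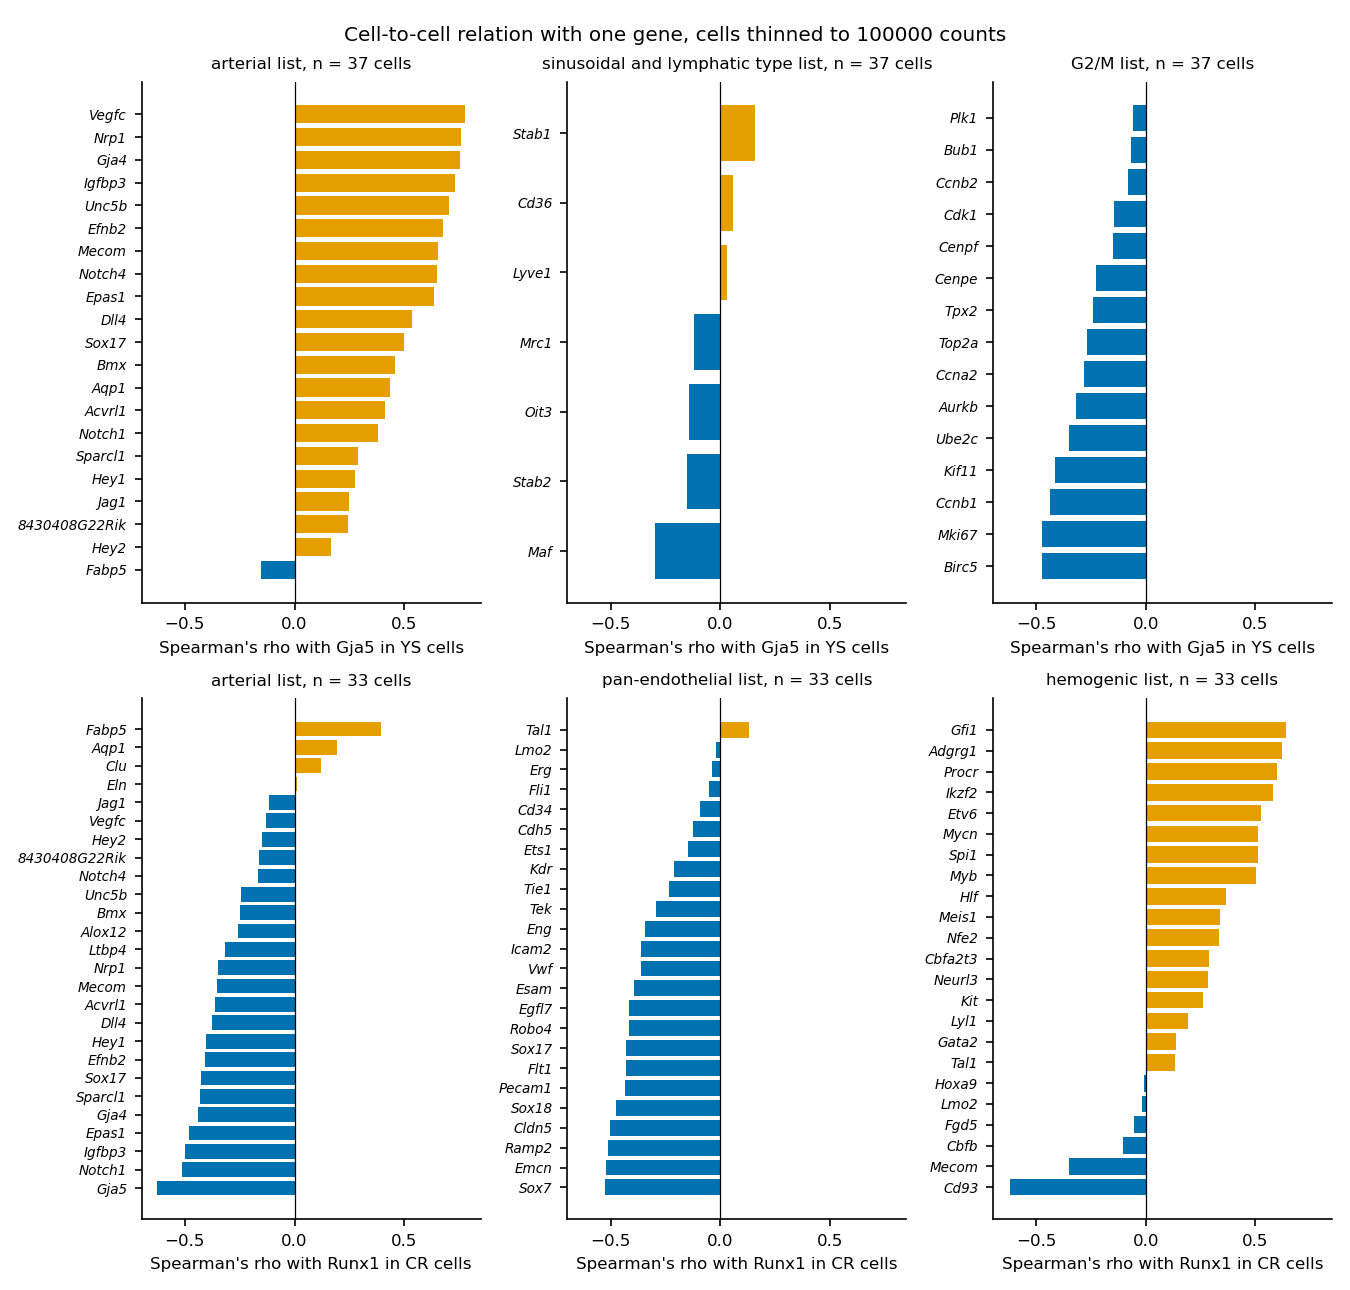
Spearman's rho across single cells thinned to 100000 counts, between Gja5 and members of 3 lists in 37 YS cells (top row) and between Runx1 and members of 3 lists in 33 CR cells (bottom row), for genes detected in at least 50% of those cells. Bars for 20 of 21 arterial genes point right with Gja5 in YS, and those for 22 of 26 point left with Runx1 in CR. Bars for 17 of 23 hemogenic genes point right with Runx1.

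The medians of the 2 cell cycle lists lay on opposite sides. Of 16 G2/M genes, 5 were higher in YS (against 14.3% of all genes) and 0 in CR (against 15.6%), with a median log2 ratio of 0.68. The proliferation marker Mki67 was at 859 CPM in YS and 237 CPM in CR, and ran from 0 through 603 to 2602 CPM over YS cells and from 0 through 53.2 to 991 CPM over CR cells. Of 16 S-phase genes, 15 lay within 2-fold (against 70.1% of all genes) and 1 was higher in CR (against 15.6%), with a median log2 ratio of -0.55. Among cells with at least 200 CPM of Gja5, 5 of 16 S-phase genes were higher in CR (against 1647 of 9364 for all genes). In the same cells 7 of 16 G2/M genes were higher in YS (against 1482 of 9364). Ccnd2, a G1 cyclin, was at 734 CPM in CR and 259 CPM in YS, and Cdkn1b, a cyclin-dependent kinase inhibitor, at 13.4 and 70.6 CPM. Of 18 immediate early and heat shock genes, which also respond to handling, 7 were higher in YS (against 14.3% of all genes) and 0 in CR (against 15.6%), with Hspa1a at 61.9 CPM in YS and 0 counts in CR and Fos at 1147 and 705 CPM. Of 14 MHC class I and interferon genes tested, 7 were higher in YS (against 14.3% of all genes) and 0 in CR (against 15.6%). Bst2 was at 184 and 70.3 CPM, whereas the MHC light chain B2m was at 431 and 393 CPM. By the mean over cells, 3 of 16 G2/M genes and 3 of 11 MHC and interferon genes were higher in YS, and 1 of the latter higher in CR. Over all genes, that weighting had 1219 of 9333 higher in YS and 1448 higher in CR. The part of handling in these ratios was not tested.

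The connective tissue genes higher in YS rested on the single YS cell rich in Col1a1. Of 8 mesenchyme and mural genes tested, 5 were higher in YS (against 14.3% of all genes), with Col1a1 at 135 against 1.20 CPM and Col3a1 at 103 against 4.03 CPM. Without that cell 4 genes of the list were tested, 0 were higher in YS and 1 higher in CR, the Col1a1 log2 ratio went from 6.81 to 2.39 and that of Col3a1 from 4.68 to -0.10. The 20 genes of the list summed to 6.32 to 15708 CPM over YS cells, with 5 at 0 counts, and 33.9 to 3635 CPM over CR cells, with 9 at 0. Acta2, the smooth muscle actin, was at 178 CPM in YS and 218 CPM in CR. Matrix counts without the YS cell rich in Col1a1 are given above, and the part of any other such cells was not tested.

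In the E10.0 libraries, each deposited as a table of its own, 37 of 82 cells had both a Gja5 and a Cd44 count (1 to 15 cells a library). Over the 9 libraries, summed levels in those cells were 1.10 to 2230 CPM of Stab2 (median 1141), 2.20 to 4750 CPM of Lyve1 (median 2924) and 0 to 1313 CPM of Mrc1 (median 454). Stab2 and Lyve1 were thus detected in all 9 libraries. Runx1 was at 0 in 7 of 9, Gfi1 in 7 of 9, Spi1 in 8 of 9 and Hoxa9 in 5 of 9. Vwf ranged from 0 to 794 CPM (median 3.95), Cxcl12 from 0 to 723 CPM (median 0) and Mt1 from 0 to 278 CPM (median 80.7).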

How the data were processed

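The deposited files hold whole-number read or molecule counts per gene and cell, and the authors aligned to mm10, per the submitters' processing notes. For the aligner, the counter and any collapsing of molecular identifiers, nothing is stated in the sources used here. The 92 spike-in rows were removed, which left 24414 genes, and 0 columns were unmapped. The counts of a sample's cells were added up and expressed as counts per 1000000 (CPM). With 1 library a group there was no test: genes with at least 10 CPM in the higher group were compared by a 2-fold limit, a group at 0 was set to 3 counts, and intervals are exact 95% Poisson or Clopper-Pearson intervals (SciPy 1.17.1). Cells are not replicates. Shares of cells were also given after thinning each cell to 100000 counts, which left out 13 YS, 11 CR and 12 Gja5-Cd44+ YS cells. Doublets were not called. Some genes are not reported here.

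Depth set the precision: 3 counts over the group correspond to 0.261 CPM in YS and 0.327 CPM in CR, and 1 count in a cell of median depth to 5.61 and 6.10 CPM. Named genes were the sorting markers, members of 34 gene lists (past 2-fold, or defining for the list) and genes among the 15 highest and 15 lowest ratios with at least 50 CPM, a count in 50% of cells and no cell above 25% of the counts. The members and the lists were chosen with earlier results of these data known. The cell-to-cell coefficients, the promoters, the motifs and the genes given in E10.0 cells were chosen after the values were seen, as were Mt2, Fos, B2m, Acta2 and other genes named outside that rule. Scripts were tested on simulated data. Python 3.11.15, numpy 2.4.6 and pandas 2.3.3 were used, with edgeR 4.0.16 and DESeq2 1.42.0 for scaling factors in alternatives. Gene positions are those of GENCODE on GRCm38, and promoters come from RefSeq. Of the 15 genes with the highest and the 15 with the lowest ratios, 10 and 9 had a RefSeq promoter.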

Additional observations from a re-analysis of the deposited data

Results flagged for a closer look

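Among 19 genes examined in E10.0 cells with both a Gja5 and a Cd44 count, 6 had 1 library of 9 far from the others. Cxcl12, Runx1, Spi1 and Hoxa9 had no count in most libraries, so a library with counts is easily flagged. Spi1 had counts in a single library, which stands apart by construction, while Runx1 and Hoxa9 had counts in more than 1. The libraries also held few such cells, so the number of flagged genes cannot be compared with a chance rate. Cxcl12 was at 722.785 CPM in replicate 8. Gja4 was at 1975.914 CPM and Vwf at 793.659 CPM in replicate 4, which held 1 such cell. Runx1 was at 73.705 CPM and Spi1 at 79.157 CPM in replicate 9, which held 15 such cells. Hoxa9 was at 10.981 CPM in replicate 6.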

How the results depend on the processing

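No paired analysis was possible because each sorted group is 1 library. Both counts of genes past 2-fold (1347 higher in YS, 1461 in CR) stayed within 1.5 times under the other weightings, scalings and cell subsets except in these cases: with no CPM filter they were 2291 and 3023, with at least 50 CPM 467 and 410, with a 4-fold limit 499 and 579, and in the 3 YS and 9 CR cells with an Xist count and no Y-linked count 2056 and 3111. The share of calls on the YS side was 48.0%, 51.7% with TMM and 52.6% with median-of-ratios factors. In those 3 and 9 cells the log2 ratio changed sign for these named genes past 2-fold: Ace (-0.59), Bst2 (-1.52), Col3a1 (-3.31), Dab2 (-0.19), Hoxa5 (1.73), Hoxb5 (-2.33), Ikzf2 (0.47), Itga2b (-3.66), Laptm5 (1.11), Mmrn1 (1.51), Myb (0.85), Mycn (2.04), Notch3 (0.996), Nrp2 (-4.54), Runx1 (0.84) and Stab1 (-1.04). Col3a1 also changed sign without the YS cell rich in Col1a1 (-0.10) and in cells with at least 200 CPM of Gja5 (-0.53), and Hoxb5 by the mean over cells (-0.32). The cause was not tested beyond the number of cells. The subset without the cell rich in Col1a1, that with at least 200 CPM of Gja5, totals without globins and the 10-count limit were chosen after seeing the data. Totals without mitochondrial genes could not be run because 0 such genes are in the files.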
